A study of Mus musculus with 6 samples.

Results

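The estrogen-related receptors (ERRs), the PGC-1 coactivators that they depend on and the receptors and coregulators that work beside them were followed as a set of 10 genes in cultured mouse pancreatic acinar cells taken straight from the animal. The genes are Esrrg, Esrra, Esrrb, Ppargc1a, Ppargc1b, Ppara, Ppard, Nr0b2, Ncoa3 and Nrip1. They were chosen by name with earlier results of these data known. Each was found once among the 23282 rows of the count tables. Of the 10, 8 held enough counts for a test and 2 (Esrrg and Esrrb) did not. The 6 libraries, all of strain C57BL/6J, are 3 controls of wild-type genotype and 3 of a conditional knock-out (cKO) with the genotype ERRgamma -/-, the product of Esrrg. Both groups were kept in Waymouth's medium with serum, antibiotics, trypsin inhibitor and recombinant human epidermal growth factor. The labels do not say what drove the deletion, which part of Esrrg was removed, how old the animals were, how long the cells were cultured or whether each library is another animal. All p-values rest on the spread among libraries, and that spread may be technical.

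ERRs are orphan nuclear receptors: they bind DNA at a single extended receptor site and activate transcription without a known natural ligand. Their activity is set largely by coactivators, above all PGC-1 alpha (Ppargc1a) and PGC-1 beta (Ppargc1b), and they are known for driving genes of the respiratory chain, the citric acid cycle and fatty acid oxidation. PPAR alpha and PPAR delta use the same coactivators on genes of lipid use. Coregulators such as Ncoa3 (activating), Nrip1 and Nr0b2 (repressing) bind the same receptors. Acinar cells make large amounts of secreted enzymes, which is costly in ATP.

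A 3' tag library gives 1 tag per sequenced transcript end, so the counts below are tags. The libraries held 23.0 to 25.2 M tags in the controls and 15.2 to 17.0 M in the cKO (M, mega). A list of 38 digestive enzyme genes took 83.6% to 85.2% of the control tags, and 20.6%, 53.9% and 27.5% of those in cKO replicates 1, 2 and 3. Of the 13132 tested genes, 98.9% had a higher mean share of the library in the cKO, and a level depends on how libraries are scaled. The median log2 fold change of all tested genes was 3.36 on library totals. On totals outside the enzyme list it was still 1.26. Levels are given here as counts per M tags (CPM) of the effective library size, which is the library total multiplied by the TMM factor of edgeR (a trimmed mean of ratios that sets most genes to no change). CPM of the plain library total is named as such wherever it is used. In bulk libraries, fewer cells of a type and less RNA per cell cannot be told apart.

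Sequences upstream of the genes whose levels fell most are shown here because the ERRs read a short DNA element and Ppargc1a is a known target of cyclic AMP signalling. For 8 of the 10 genes, promoters were taken from the RefSeq promoter table (build GRCm38.p6). The 250 bases before each start were searched on both strands. Nr0b2 lies on chromosome 4 at 133553376 to 133556536 (GRCm38, plus strand). The bases before its start, at chr4:133553126-133553375, plus strand, are given with TCAAGG, the first part of the ERR element, in capitals.
Nr0b2 upstream: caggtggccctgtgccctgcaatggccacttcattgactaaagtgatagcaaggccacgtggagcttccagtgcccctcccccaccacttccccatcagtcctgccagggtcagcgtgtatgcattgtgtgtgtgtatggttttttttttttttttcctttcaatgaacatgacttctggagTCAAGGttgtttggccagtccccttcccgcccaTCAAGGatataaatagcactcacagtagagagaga
Ppargc1a lies on chromosome 5 at 51454250 to 51567726 (minus strand). The bases before its start, at chr5:51567726-51567975, minus strand, are given with CGTCA, the reverse complement of TGACG, the core of the cyclic AMP element, in capitals.
Ppargc1a upstream: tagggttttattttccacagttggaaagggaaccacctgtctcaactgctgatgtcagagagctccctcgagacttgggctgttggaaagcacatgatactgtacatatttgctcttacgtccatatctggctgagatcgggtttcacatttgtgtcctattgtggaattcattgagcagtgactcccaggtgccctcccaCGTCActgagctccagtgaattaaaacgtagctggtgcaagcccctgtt

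The Nr0b2 window held TCAAGG at 68 to 63 and again at 35 to 30 bases before the start, both on the strand of the gene. TCAAGG occurred in 12.5% of the 32851 promoters of the table, and it was singled out after the sequence had been seen. Besides Nr0b2, 1 of the 4 Esrrg promoters held it, but bases after the start of that promoter were not found in an annotated Esrrg transcript. The full element TCAAGGTCA (0.387% of all promoters), the looser TNAAGGTCA (1.14%, which includes the former) and the PPAR-type direct repeat (AGGTCA, any 1 base, AGGTCA, 0.0335%) were found in none of the windows of the 8 genes. The Ppargc1a match ended 45 bases before the start. TGACG (17.8% of all promoters) was also found in windows of Ppara and Esrrb, and the full cyclic AMP element TGACGTCA (1.55%, which includes TGACG) in none. These are matches of letters in 250 bases and say nothing of binding.

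Of the 3 receptor genes, Esrra alone held more than a few tags. Esrrg, the targeted gene (chromosome 1, 187608791 to 188214885, plus strand), was counted at 0, 0 and 0 tags in the controls and at 0, 9 and 1 tags in cKO replicates 1, 2 and 3. The control libraries thus held no Esrrg tag, and the knock-out libraries were not lower. A count of 0 allows up to 3 tags, which is 0.353 to 0.399 CPM in a control library and 0.0505 CPM in cKO replicate 1. The 9 tags of cKO replicate 2 came to 0.271 CPM, with an exact Poisson 95% interval of 0.124 to 0.515 CPM that covers counting error only. On the TMM scale that level is below what a count of 0 allows in any single control library. It is above the 0.126 CPM that 3 tags over the whole control group would give. As a share of the library total, the 9 tags came to 0.531 CPM, above the limits of single control libraries of 0.119 to 0.130 CPM. The groups overlapped on both scales, since cKO replicate 1 was at 0 (exact 2-sided permutation p = 0.4 on library totals, where the smallest possible is 0.1). Esrrg thus gives no check of the genotype labels. A 3' tag also says nothing about a deleted exon that lies away from the transcript end. Esrrb, the ERR of early embryo and inner ear, was at 0 in all 6 libraries (chromosome 12, 86361117 to 86521628).

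Esrra encodes ERR alpha, the most widely expressed family member (chromosome 19, 6910977 to 6921813, minus strand). It was counted at 133, 164 and 148 tags in the controls and at 1069, 750 and 1235 tags in the cKO. On the TMM scale these were 17.7, 19.3 and 18.8 CPM against 18.0, 22.6 and 20.6 CPM. The groups overlapped, and the means were 18.6 ± 0.835 and 20.4 ± 2.31 CPM (SD, n = 3 libraries each). The log2 fold change was 0.13 ± 0.17 (SE), with an adjusted p of 0.550 by edgeR's quasi-likelihood test with Benjamini-Hochberg adjustment over all tested genes. As a share of all tags, Esrra stood at 5.44 to 6.51 CPM of the library total in the controls and at 44.2 to 75.5 in the cKO, a 10.3-fold higher mean, which is close to the shift of the median gene on that scale (3.36 log2, against 3.37 for Esrra). Under scaling to library totals Esrra therefore passed as higher (adjusted p = 5.12e-15, edgeR), and under scaling to tags outside the enzyme list it passed at 1.28 ± 0.18 (adjusted p = 1.78e-05, edgeR), where the median gene was at 1.26.

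The Esrra values carry a limit that shows in the counts. The annotated 3' end of Esrra overlaps that of Trmt112, a methyltransferase subunit gene on the opposite strand, by 73 bases. Per 100 Trmt112 tags there were 83.6, 85.4 and 90.8 Esrra tags in the controls and 88.6, 87.4 and 88.8 in the cKO. This ratio hardly moved in any library: the chi-square of the 2 rows over 6 libraries was 0.0873 per degree of freedom, less spread than independent sampling of tags gives. Of 13131 other tested genes, Trmt112 had the profile nearest to Esrra (root mean square difference of centred log2 CPM of 0.0387). Among 355 tail-to-tail overlapping pairs with at least 500 tags of each gene, 101 pairs (28.5%) were under 1 per degree of freedom, with a median of 3.26. At or under the value of Esrra and Trmt112 were 17 pairs, that pair included. Whether the counting used the strand is not stated, so tags of Esrra and Trmt112 cannot be told apart. This comparison was added after the values were seen.

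**Figure D1:**
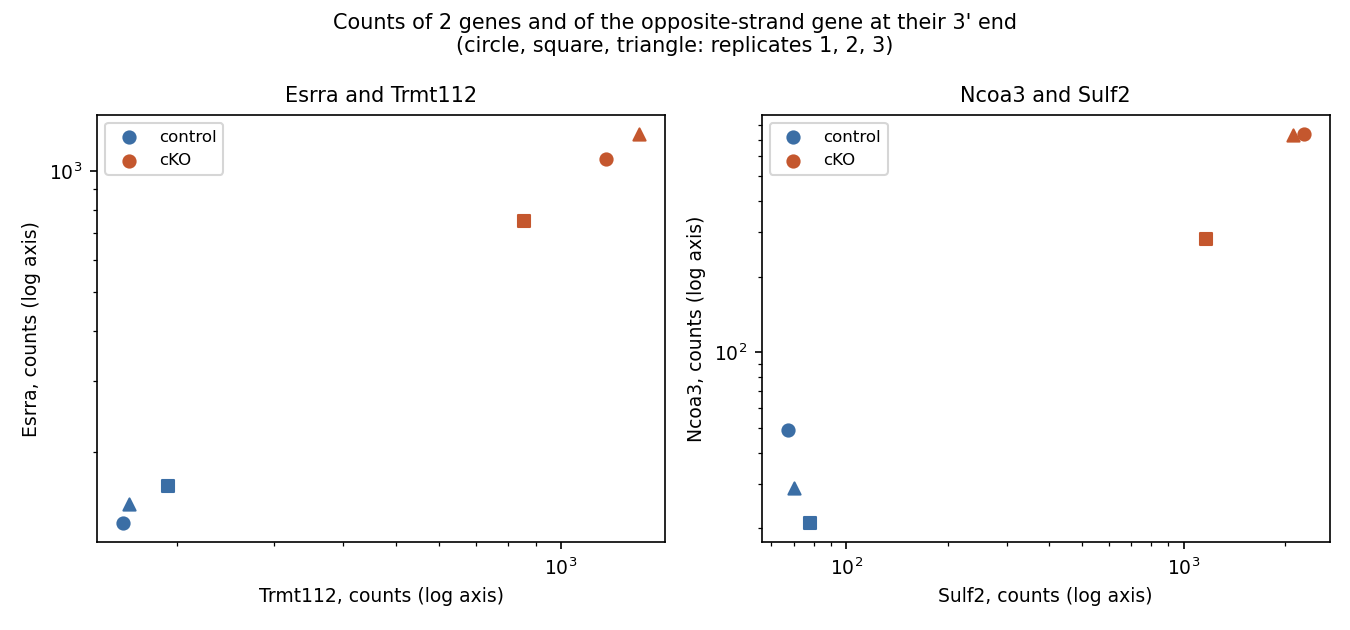
Tags of Esrra against Trmt112 (left) and of Ncoa3 against Sulf2 (right), the opposite-strand gene at each 3' end, with both axes logarithmic and each point 1 library. The Esrra points lie along 1 line, at 83.6 to 90.8 tags per 100 of Trmt112, while the Ncoa3 points spread from 24.2 to 73.1 per 100 of Sulf2.

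The 8 tested genes went in both directions on the TMM scale: Ncoa3 and Nrip1 passed as higher in the cKO, Ppargc1a, Ppara, Ppard and Nr0b2 passed as lower, and Esrra and Ppargc1b did not pass. Those counts, 2 higher and 4 lower of 8, stand beside 24.0% called higher and 20.7% called lower among all 13132 tested genes (44.7% in either direction). The median log2 fold change was -1.04 over the tested members and 0.10 over all tested genes. On the TMM scale 7 of the 8 had groups that did not overlap, against 56.2% of all tested genes (30.7% higher and 25.4% lower). On library totals, 6 of the 8 were higher in every cKO library than in every control and none was lower, against 96.9% and 0.518% of all tested genes (97.4% in either direction).

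**Figure D2:**
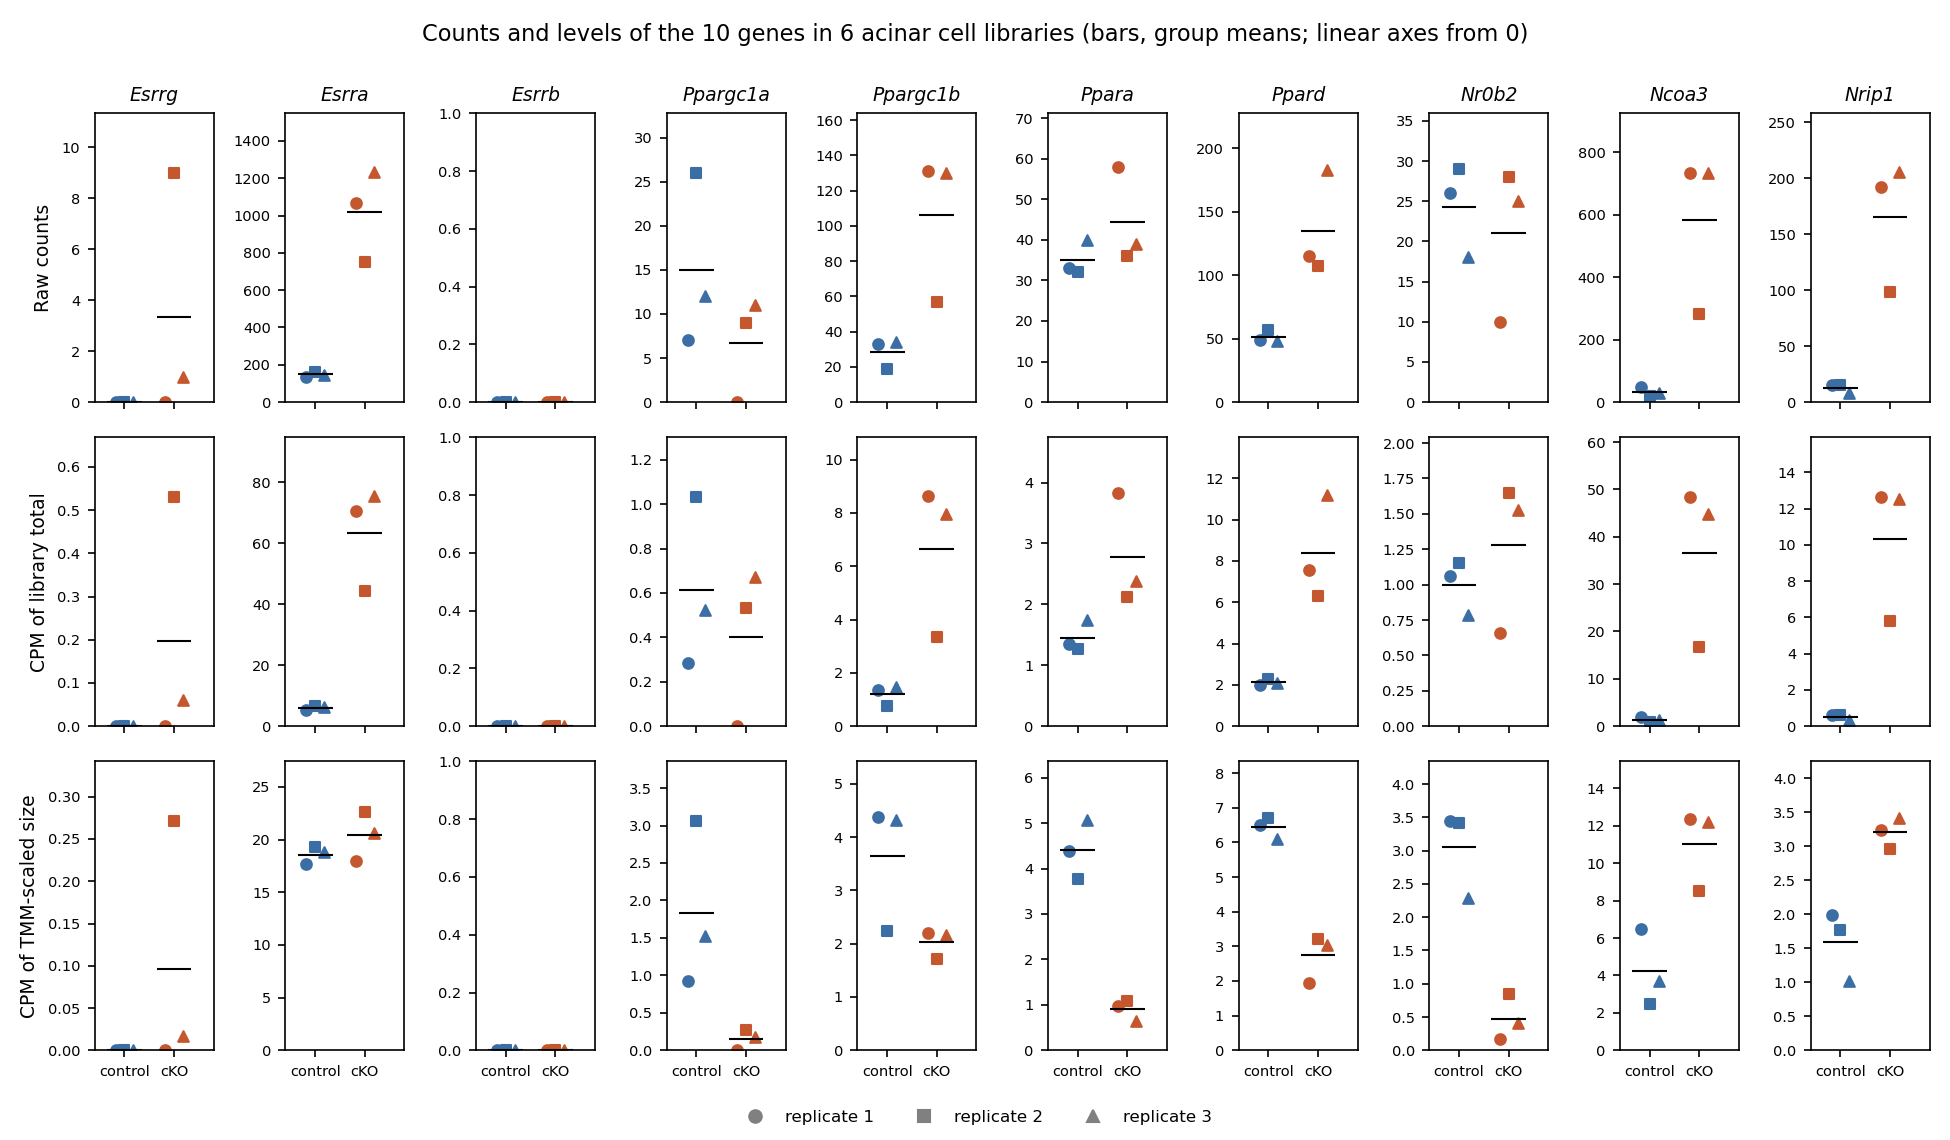
Each of the 10 genes in the 6 libraries, as raw tags, as CPM of the library total and as CPM of the TMM-scaled library, on linear axes from 0, with bars at the group means and symbols for replicates. In raw tags Esrra, Ncoa3 and Nrip1 stand far higher in the cKO, whereas on the TMM scale Ppara, Ppard and Nr0b2 stand lower in every cKO library.

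Of the PGC-1 coactivators, Ppargc1a was the gene with the largest fall in the set. PGC-1 alpha is induced by cold, fasting and exercise and raises mitochondrial content. It was counted at 7, 26 and 12 tags in the controls and at 0, 9 and 11 tags in the cKO, or 0.930, 3.06 and 1.52 CPM against 0, 0.271 and 0.183 CPM. All cKO libraries lay below all controls on this scale, with means of 1.84 ± 1.10 and 0.152 ± 0.138 CPM (SD, n = 3 each). At the control mean, 109, 61.0 and 110 tags would have been counted in cKO replicates 1, 2 and 3. The log2 fold change was -3.67 ± 0.90 (SE), adjusted p = 0.00427 (edgeR). The call rests on few tags: without control replicate 2, which held 26 of them, Ppargc1a fell below the low-count filter and was not tested. The size is loose as well: leaving out cKO replicate 2 gave -4.26, and leaving out cKO replicate 1, the library with no tag, gave -3.02. Scaled to tags outside the enzyme list it was -2.55 (adjusted p = 0.0169, edgeR). On library totals the groups overlapped (0.286 to 1.03 against 0 to 0.672 CPM), and the log2 fold change of -0.59 had an adjusted p of 0.466 in edgeR. Ppargc1a was the only tested member whose mean share of the library was lower in the cKO, where the median gene rose by 3.36 log2.

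PGC-1 beta, encoded by Ppargc1b, is the paralog linked to basal mitochondrial function. Its tags were 33, 19 and 34 in the controls and 131, 57 and 130 in the cKO, which are 4.38, 2.24 and 4.32 CPM against 2.20, 1.72 and 2.17 CPM. The cKO libraries lay just below the lowest control, replicate 2, and the means were 3.65 ± 1.22 and 2.03 ± 0.271 CPM (SD, n = 3 each). The log2 fold change of -0.83 ± 0.36 did not pass (edgeR adjusted p = 0.0763). It passed only without control replicate 2 among the single libraries left out (-1.09, adjusted p = 0.0268, edgeR). On library totals the sign turned and Ppargc1b passed as higher (2.47, adjusted p = 1.97e-05, edgeR), with every cKO library above every control. Scaled to tags outside the enzyme list it was 0.34 (adjusted p = 0.435, edgeR).

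PPAR alpha, the receptor that turns on fatty acid oxidation in liver, is encoded by Ppara (chromosome 15, 85734983 to 85802819, plus strand). It was counted at 33, 32 and 40 tags in the controls and at 58, 36 and 39 in the cKO, so that raw tags were nearly level. On the TMM scale it stood at 4.38, 3.77 and 5.08 CPM against 0.976, 1.08 and 0.650 CPM. Every cKO library was below every control, with means of 4.41 ± 0.656 and 0.904 ± 0.226 CPM (SD, n = 3 each), a 4.88-fold lower level. In log2 terms the change was -2.29 ± 0.39, adjusted p = 0.000220 (edgeR).

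Ppard encodes PPAR delta, the widely expressed sister receptor (chromosome 17, 28232700 to 28301474, plus strand). Its 49, 57 and 48 control tags and 115, 107 and 183 cKO tags gave 6.51, 6.71 and 6.09 CPM against 1.94, 3.22 and 3.05 CPM. The groups did not overlap, the controls were tight, and the means were 6.44 ± 0.314 and 2.74 ± 0.699 CPM (SD, n = 3 each). Ppard had a log2 fold change of -1.24 ± 0.29, adjusted p = 0.00296 (edgeR). Both PPAR genes turned direction on library totals, to 0.93 (adjusted p = 0.151) for Ppara and 1.98 (adjusted p = 0.000177) for Ppard in edgeR. When libraries were scaled to their tags outside the enzyme list, Ppara stayed lower at -1.14 (adjusted p = 0.0215), and Ppard stood at -0.09 (adjusted p = 0.797).

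Nr0b2 encodes the small heterodimer partner, a receptor without a DNA-binding domain that represses other nuclear receptors, the ERRs among them. It was counted at 26, 29 and 18 tags in the controls and at 10, 28 and 25 in the cKO. These were 3.45, 3.41 and 2.28 CPM against 0.168, 0.844 and 0.417 CPM on the TMM scale. No cKO library reached the lowest control, and the means were 3.05 ± 0.663 and 0.476 ± 0.342 CPM (SD, n = 3 each). The log2 fold change was -2.73 ± 0.59, adjusted p = 0.00154 (edgeR). Scaled to tags outside the enzyme list it was -1.61 (adjusted p = 0.0235), and on library totals the sign turned (0.36, adjusted p = 0.625, with overlapping groups).

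The coregulators Ncoa3 and Nrip1 were the genes that rose. Ncoa3 (SRC-3, chromosome 2, 165992636 to 166073242, plus strand) is a coactivator that recruits histone acetyltransferases to receptors. It was counted at 49, 21 and 29 tags in the controls and at 735, 282 and 733 in the cKO, or 6.51, 2.47 and 3.68 CPM against 12.4, 8.50 and 12.2 CPM. The cKO libraries all lay above the highest control, replicate 1, with means of 4.22 ± 2.07 and 11.0 ± 2.19 CPM (SD, n = 3 each). Its log2 fold change was 1.40 ± 0.31, adjusted p = 0.00185 (edgeR). Its 3' end overlaps that of Sulf2, a sulfatase gene on the opposite strand, by 154 bases. Sulf2 rose as well, by 2.01 ± 0.17 log2 (adjusted p = 7.56e-07, edgeR). Per 100 Sulf2 tags there were 73.1, 26.9 and 41.4 Ncoa3 tags in the controls and 32.4, 24.2 and 34.9 in the cKO, a ratio that varied by more than sampling gives (chi-square of 8.80 per degree of freedom). How many tags the overlap lends to Ncoa3 was not tested.

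Nrip1 encodes RIP140, a corepressor of ERRs and PPARs in fat and muscle (chromosome 16, 76287400 to 76373827, minus strand). Its tags were 15, 15 and 8 in the controls and 192, 98 and 205 in the cKO. The levels were 1.99, 1.77 and 1.02 CPM against 3.23, 2.95 and 3.42 CPM, with means of 1.59 ± 0.511 and 3.20 ± 0.233 CPM (SD, n = 3 each). The groups did not overlap, and the log2 fold change of 1.01 ± 0.38 passed narrowly (adjusted p = 0.0417, edgeR). That call was lost without control replicate 2 (adjusted p = 0.0617), control replicate 3 (0.124), cKO replicate 1 (0.0978) or cKO replicate 3 (0.144), all by edgeR. It was also lost when the replicate numbers were fitted as a block (adjusted p = 0.0703, edgeR).

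**Figure D3:**
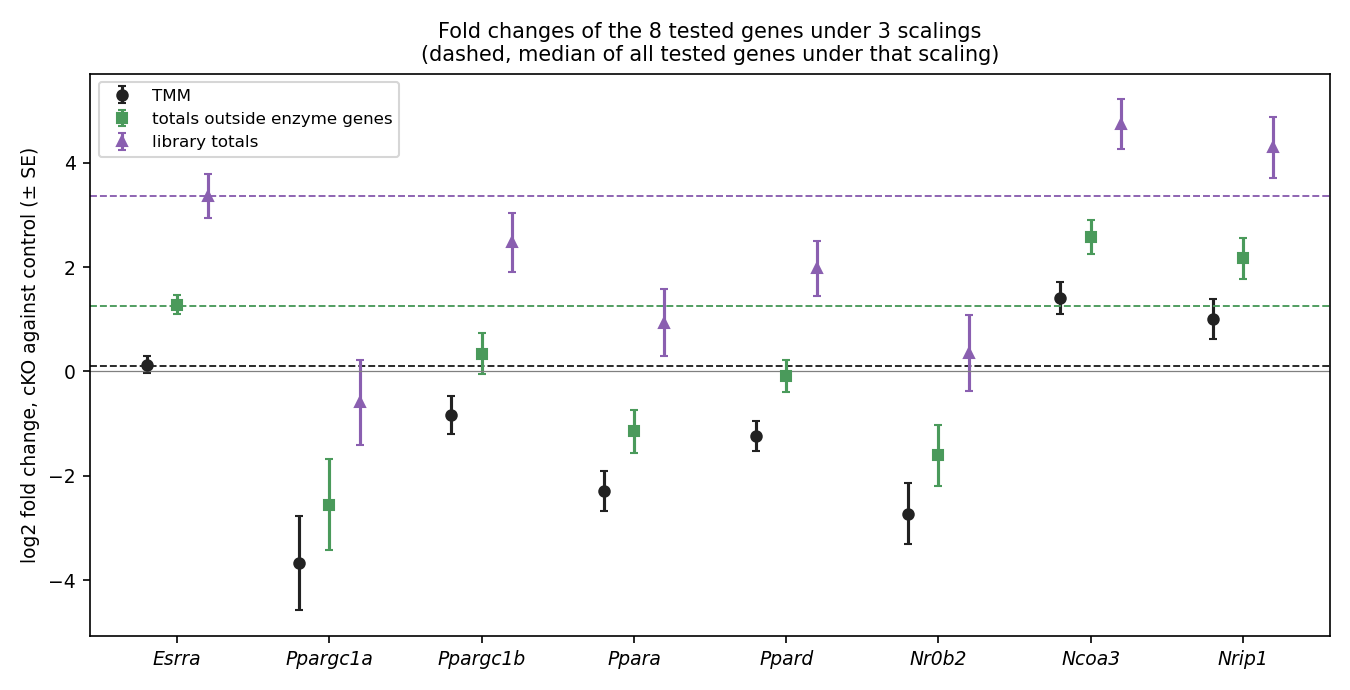
Log2 fold changes, cKO against control, with SE bars for the 8 tested genes under TMM, under totals outside the enzyme list and under library totals, with a dashed line at the median of all tested genes for each scaling. Ppargc1a is lowest and Ncoa3 highest under each scaling, while the median of all genes moves from 0.10 to 1.26 and 3.36.

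A change of scaling shifts the genes of a library alike, so the distance of a member from the median of all tested genes is nearly fixed by construction. It is given as a description only. Ppargc1a lay -3.77 log2 from that median under TMM, -3.81 under totals outside the enzyme list and -3.96 under library totals. Nr0b2 lay at -2.82, -2.86 and -3.01, Ppara at -2.39, -2.40 and -2.43, and Ppard at -1.34, -1.35 and -1.39. Ppargc1b lay at -0.93, -0.92 and -0.89. Above the median, Ncoa3 lay at 1.30, 1.32 and 1.38 and Nrip1 at 0.91, 0.91 and 0.93, whereas Esrra lay at 0.03, 0.02 and 0.01. These distances have no test of their own.

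Ratios of tags between genes within a library are free of any scaling, so 6 pairs were compared with an exact 2-sided permutation test of log2 ratios (with 0.5 added to each count). With 3 libraries against 3 its smallest p is 0.1, and the values adjusted over the 6 pairs cannot go below that. A ratio of tags is no ratio of transcript levels, and only its change between groups is read. For the PGC-1 paralogs, the libraries held 0.212, 1.37 and 0.353 Ppargc1a tags per Ppargc1b tag in the controls and 0, 0.158 and 0.0846 in the cKO. Every cKO ratio was below every control ratio: summed over libraries there were 52.3 Ppargc1a tags per 100 of Ppargc1b in the controls and 6.29 in the cKO, and the mean log2 ratio fell by 3.65 (exact permutation p = 0.1, adjusted 0.15). The size of that fall rests on cKO replicate 1, which had no Ppargc1a tag: without it the difference was -1.99 (exact permutation p = 0.2), and with 0.1 or 1 added to each count it was -4.43 or -3.32. For the PPAR pair, 0.673, 0.561 and 0.833 Ppara tags per Ppard tag became 0.504, 0.336 and 0.213, again without overlap. The summed values were 68.2 and 32.8 per 100, and the mean log2 ratio fell by 1.04 (exact permutation p = 0.1, adjusted 0.15). Ncoa3 to Nrip1 did not separate the groups, with 3.27, 1.40 and 3.63 against 3.83, 2.88 and 3.58 (difference of 0.45 log2, exact permutation p = 0.5).

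Set against Esrra, whose tags share the limit given above, Ppargc1a fell from 10.1 to 0.655 tags per 100 summed over libraries (-4.59 log2, exact permutation p = 0.1, adjusted 0.15) and Nr0b2 from 16.4 to 2.06 (-3.06 log2, same p). In both pairs no cKO library reached a control library. The value for Ppargc1a and Esrra again leans on the 0 of cKO replicate 1. It was -3.07 without that library (-5.45 to -3.07 over all libraries left out in turn, exact permutation p of 0.1 to 0.2), and -5.35 or -4.26 with 0.1 or 1 added to each count. Ppargc1b tags per Esrra tag were 0.248, 0.116 and 0.230 in the controls and 0.123, 0.0760 and 0.105 in the cKO, and the groups overlapped (-0.93 log2, exact permutation p = 0.2, adjusted 0.24).

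**Figure D4:**
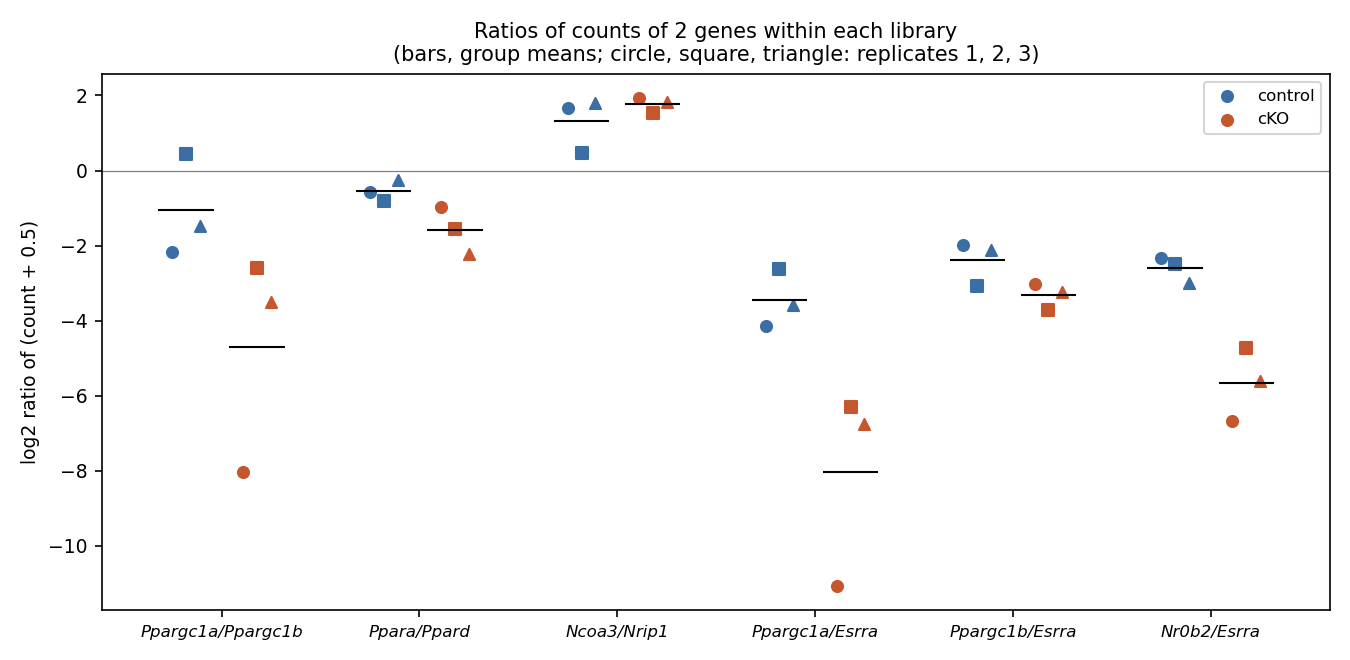
Log2 ratios of (count + 0.5) of 6 gene pairs in each library, with bars at the group means and symbols for replicates. The cKO points lie below all control points for Ppargc1a/Ppargc1b, Ppara/Ppard, Ppargc1a/Esrra and Nr0b2/Esrra, and overlap them for Ncoa3/Nrip1 and Ppargc1b/Esrra.

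The cKO libraries were not alike. Replicate 2 kept the largest share of enzyme tags (53.9%) and the largest summed level of the 23 acinar markers. It was the highest of the 3 cKO libraries on the TMM scale for Esrrg, Esrra, Ppargc1a, Ppara, Ppard and Nr0b2, and the lowest for Ppargc1b, Ncoa3 and Nrip1. Over all tested genes it was highest for 38.8% and lowest for 39.4%. On library totals the order was another: replicate 2 was highest only for Esrrg and Nr0b2, in the middle for Ppargc1a and lowest for Esrra, Ppara, Ppard, Ppargc1b, Ncoa3 and Nrip1. Nr0b2 was highest in that library on both scales, at 0.844 CPM (TMM) against 0.168 and 0.417 in the others, and without that library its log2 fold change was -3.35.

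Markers of cell types moved with the groups. All 23 acinar markers were lower in the cKO (median log2 fold change -3.72), and their summed level was 985377 to 1130999 CPM in the controls and 29307, 155992 and 43146 CPM in cKO replicates 1, 2 and 3. A level can pass 1 M because TMM sets the effective size of a control library below its total. Of 14 fibroblast markers, 12 rose, from a summed 831 to 912 CPM to 3911 to 5698 CPM, and Col1a1 and Pdgfra were counted in every library. Of 13 tested leukocyte markers, 12 rose, from 95.7 to 120 CPM to 369 to 755 CPM, with Ptprc and Csf1r counted in every library. Mesothelial markers went up for 5 and down for 2 of 7 (134 to 144 CPM against 168 to 185 CPM), and Upk3b was at 0 in 2 controls. Duct markers rose for 3 and fell for 4 of 9 tested (2736 to 3083 CPM against 420 to 979 CPM), with Krt19 and Sox9 present throughout.

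Endothelial markers rose for 2 and fell for 4 of 10 (68.4 to 74.4 CPM against 41.2 to 60.8 CPM), with Pecam1 and Cdh5 counted in every library. Of 12 islet markers 2 fell and none rose (604 to 963 CPM against 414 to 854 CPM), and Ins2 and Gcg were counted in every library. Adipocyte markers summed to 29.5 to 47.7 and 23.1 to 35.7 CPM, with 1 of 3 tested lower, Adipoq at 0 in 3 libraries and Plin1 at 0 in 3. Schwann cell markers summed to 1.33 to 1.53 and 3.20 to 4.04 CPM, none of 3 tested passed, and Sox10 was at 0 in 4 libraries. The part of these markers in the changes of the 10 genes was not tested.

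Genes around the set were read from 5 lists, whose choice was made with earlier results of these data known. Together with the set they cover the coregulators, the regulators of PGC-1 induction, other nuclear receptors, and textbook targets of the ERRs and of the PPARs. Among 24 tested coregulators 4 rose (16.7%) and 5 fell (20.8%), near the 24.0% and 20.7% of all genes, with a median of -0.22. The histone acetyltransferases Crebbp (0.92 ± 0.16 log2, adjusted p = 0.000257) and Ep300 (0.95 ± 0.24, adjusted p = 0.00410), both partners of PGC-1 alpha, rose, as did the arginine methyltransferase Prmt1 (0.83 ± 0.20, adjusted p = 0.00309). Kat2b, another acetyltransferase, fell by 0.66 (SE 0.18, adjusted p = 0.00908). Fbxw7, part of a ubiquitin ligase that can turn over PGC-1 alpha, fell by 0.70 (SE 0.19, adjusted p = 0.00687). Carm1, a methyltransferase that works with Ncoa3, fell by 0.81 (SE 0.18, adjusted p = 0.00203). Carm1 overlaps Yipf2 on the opposite strand, with which its tags kept a near constant ratio (chi-square of 0.0314 per degree of freedom), so those 2 genes cannot be told apart. These p-values, and those of the lists that follow, are edgeR's over all tested genes. The signs of Kat2b, Fbxw7 and Carm1 turned under totals outside the enzyme list and under library totals. Under totals outside the enzyme list, where the median gene was at 1.26, Kat2b passed as higher (0.50, adjusted p = 0.0436). Fbxw7 (0.45, adjusted p = 0.0599) and Carm1 (0.33, adjusted p = 0.111) did not pass on that scale.

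Of 18 tested regulators of PGC-1 induction, 3 rose and 1 fell (16.7% and 5.56%, median 0.16, against 24.0% and 20.7% of all genes). Mef2c and Mef2a, transcription factors that drive Ppargc1a in muscle, rose by 1.62 ± 0.19 (adjusted p = 1.10e-05) and 1.12 ± 0.22 (adjusted p = 0.000777). Mef2c went from 12.5 ± 3.30 to 38.5 ± 3.29 CPM (SD, n = 3 each). Crtc3, a coactivator of CREB, rose by 1.04 ± 0.31 (adjusted p = 0.0131), a call lost without control replicate 3 (0.0514) or cKO replicate 3 (0.0607, edgeR). Prkaa2, a catalytic subunit of the energy sensor AMPK, fell by 2.12 (SE 0.37, adjusted p = 0.000277), from 7.11 ± 1.69 to 1.67 ± 0.824 CPM (SD, n = 3 each), and turned to 1.02 on library totals.

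Other nuclear receptors gave 2 higher and 4 lower of 12 tested (16.7% and 33.3%, median -0.51, against 24.0% and 20.7% of all genes). Esr1, the estrogen receptor alpha, went from 3, 2 and 6 tags in the controls to 328, 231 and 317 in the cKO, a rise of 3.67 ± 0.43 log2 (adjusted p = 1.05e-05). The groups lay far apart, at 0.465 ± 0.269 and 5.92 ± 0.909 CPM (SD, n = 3 each). Nr2f2 (COUP-TFII) rose by 0.69 ± 0.16 (adjusted p = 0.00324). Hnf4a, a receptor of gut and liver epithelium, fell by 2.34 (SE 0.41, adjusted p = 0.000279), Nr5a2, an acinar regulator that also stands in the acinar marker list, by 2.03 (SE 0.40, adjusted p = 0.00223), and Nr2f6 by 1.61 (SE 0.22, adjusted p = 4.20e-05). All 3 were positive on library totals. Under totals outside the enzyme list Hnf4a and Nr5a2 stayed lower, and Nr2f6 was at -0.47 (adjusted p = 0.0928, edgeR).

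Textbook targets of the ERRs gave 2 higher and 15 lower of 27 tested (7.41% and 55.6%, median -0.64, against 24.0% and 20.7% of all genes). Under totals outside the enzyme list the same list gave 14 higher and 2 lower, beside 8645 higher and 631 lower of all 13132 tested genes. Under library totals it gave 27 higher and 0 lower, beside 12653 and 53 of all tested genes. The direction of the list thus rests on the scaling. Uqcrfs1, the iron-sulfur subunit of complex III, fell by 1.70 (SE 0.17, adjusted p = 2.10e-06), from 51.8 ± 4.03 to 15.9 ± 2.45 CPM. Atp5b, the beta subunit of ATP synthase, fell by 1.17 (SE 0.15, adjusted p = 2.03e-05), from 120 ± 8.35 to 53.1 ± 1.57 CPM. Suclg1, of succinyl-CoA ligase, fell by 1.62 (SE 0.22, adjusted p = 5.21e-05). SDs of CPM here are over n = 3 libraries each, and SEs are those of the edgeR fit. The rises were those of Slc25a4, the ADP/ATP carrier of muscle and heart (1.45 ± 0.24, adjusted p = 0.000215), and Nrf1, a transcription factor of mitochondrial genes (0.97 ± 0.32, adjusted p = 0.0239). The Nrf1 call was lost without control replicate 1 (0.0634), control replicate 2 (0.0546), cKO replicate 1 (0.131) or cKO replicate 3 (0.0515), by edgeR.

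Textbook PPAR targets went both ways, with 9 higher and 5 lower of 25 tested. These were 36.0% and 20.0%, against 24.0% and 20.7% of all genes, and the list median was 0.51. Angptl4, a secreted inhibitor of lipoprotein lipase, rose from 2.95 ± 0.609 to 12.9 ± 1.60 CPM (SD, n = 3 each; 2.12 ± 0.25 log2, adjusted p = 9.96e-06). Plin2, the lipid droplet coat, rose by 1.56 ± 0.22 (adjusted p = 5.43e-05), and Cd36, a fatty acid transporter that macrophages also carry, by 1.16 ± 0.22 (adjusted p = 0.000505). Creb3l3, at 0 in all controls and at 30, 12 and 62 tags in the cKO, was at least 5.05-fold higher against 3 tags over the control group; it is named here after its values were seen, and the median of the list is the same with it at that bound. The falls included the peroxisomal genes Ehhadh and Pex11a and the ligase Acsl1. Ehhadh fell by 2.46 (SE 0.74, adjusted p = 0.0141), a call lost without control replicate 1 (0.0754), control replicate 3 (0.0688) or cKO replicate 3 (0.0681, edgeR). Pex11a fell by 1.77 (SE 0.26, adjusted p = 5.91e-05) and Acsl1 by 1.09 (SE 0.26, adjusted p = 0.00354). Under totals outside the enzyme list 19 PPAR targets were higher and 1 lower, beside 8645 higher and 631 lower of all 13132 tested genes. Acsl1 turned to 0.054 on that scale.

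**Figure D5:**
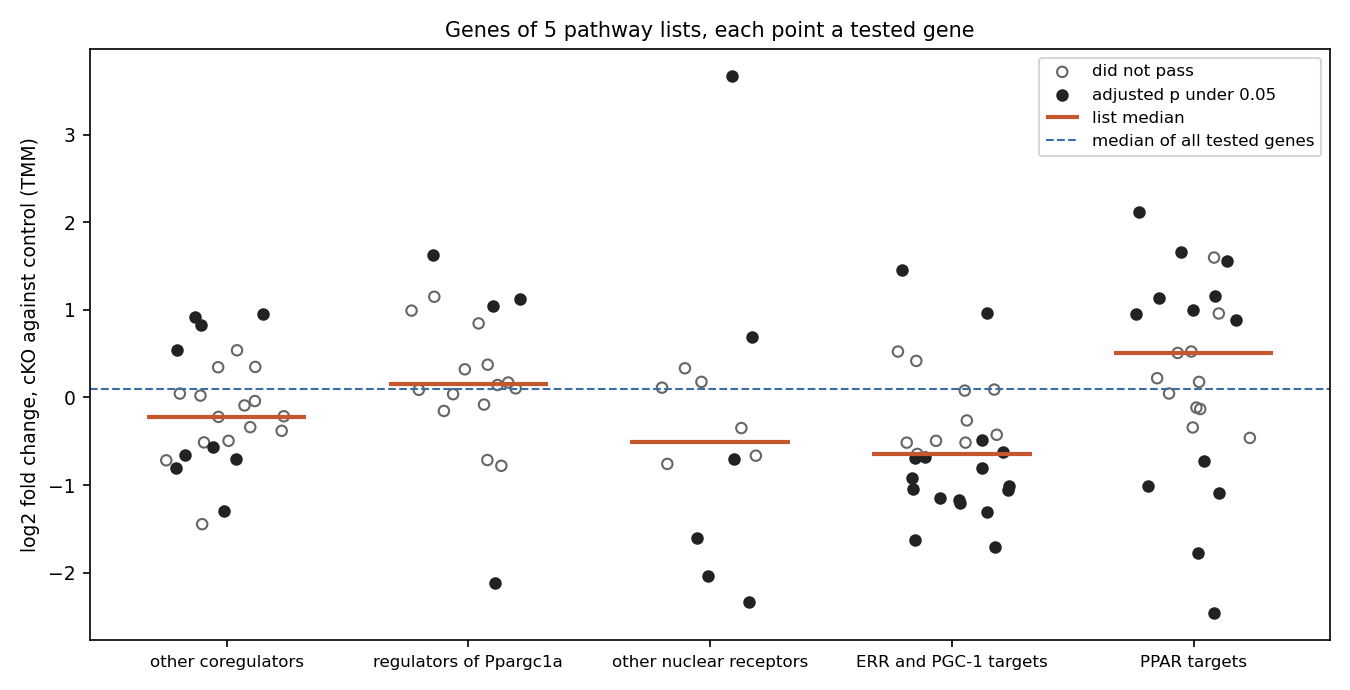
Log2 fold changes, cKO against control on the TMM scale, of the tested genes of the 5 lists, with filled points for adjusted p under 0.05, an orange bar at each list median and a dashed line at the median of all tested genes; the Creb3l3 point is left out because the controls had no tag, but the gene counts in its list median. The ERR targets sit mostly below the dashed line (median -0.64) and the PPAR targets on both sides of it (median 0.51).

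For the members past the threshold with at least 10 tags in every library, Ppara, Ppard, Nr0b2 and Ncoa3 by the rule used, the genes of most like profile were ranked over the 6 libraries. The measure was the root mean square (RMS) difference of centred log2 CPM among 4127 genes of mean log2 CPM of at least 3. Nearest to Ppara were Nudt22 (RMS 0.120), Slc7a5 (0.121) and Slc35c2 (0.181), with log2 fold changes of -2.34, -2.05 and -2.14. Nearest to Ppard were Cdc37l1 (0.0842), Saraf (0.0886) and Ibtk (0.0983), with -1.18, -1.27 and -1.09. Nearest to Nr0b2 were Foxa2 (0.121), Spint1 (0.220) and Slc41a1 (0.232), with -2.67, -2.74 and -2.93. Nearest to Ncoa3 were Rbpj (0.185), Add1 (0.209) and Dpep1 (0.218), with 1.68, 1.22 and 1.50. Likeness over 6 libraries in 2 groups is a description, and the falling genes all turned positive on library totals.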

How the data were processed

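The authors deposited raw counts of tags per gene symbol, 1 table per library, without normalization. Per the labels' protocols, a Lexogen QuantSeq kit, which reads transcript 3' ends, was used on 500 ng of RNA per library. The submitters' processing notes name GRCm38 (mm10), Bowtie2 and edgeR, without versions. The counter, annotation and strand setting are unstated. Intervals and floors (3 counts) cover counting error only, since no molecular identifiers are described. Depth per library is given with the results.

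Counts were tested in R 4.3.3 with edgeR 4.0.16 (TMM, filterByExpr at its default minimum of 10 counts and total of 15, robust quasi-likelihood fit, no covariates), cKO against control, 3 libraries each. P-values were Benjamini-Hochberg adjusted over 13132 genes, threshold 0.05. The SE is the log2 fold change over the square root of F. The fit was also run on data simulated from the control means, with a small set of genes changed equally in both directions. That simulation left out the shift in enzyme tags between groups, so it does not check TMM under such a shift. Log2 CPM for profiles used a prior count of 2. Ratios used an exact permutation test. Positions come from GENCODE M21 (GRCm38), upstream sequences from RefSeq. No 2 libraries of a group agreed within sampling noise.

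The members and lists were chosen with earlier results of these data known. Genes named in the lists are, per list, up to 3 that rose and 3 that fell with the smallest p and groups that did not overlap. Nearest profiles were taken for members past the threshold with at least 10 counts in every library, among genes of mean log2 CPM of at least 3 without model or pseudogene names. Alternatives were other scalings, DESeq2 1.42.0, other filters, no robust estimation, a replicate block, other pseudocounts and leaving out each library. Upstream sequences of Ncoa3 and Ppargc1b were not used here.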

Additional observations from a re-analysis of the deposited data

How the results depend on the processing

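All values here are log2 fold changes or counts of calls. Under DESeq2 size factors, upper-quartile factors, the DESeq2 Wald test, no low-count filter and no robust estimation, all 8 tested members and the 40 other named genes kept their direction and side of the threshold. Library totals moved the median of all genes by 3.26 and called 12653 genes higher and 53 lower (99.6% higher among calls, against 53.7% with TMM). Totals outside the enzyme list moved it by 1.16, with 8645 higher and 631 lower (93.2% higher). Called on library totals were 5 members higher and 0 lower, and 102 pathway genes higher and 0 lower. On totals outside the enzyme list, 69 pathway genes were higher and 6 lower. Tested pathway genes were 24 coregulators, 18 regulators of PGC-1 induction, 12 other receptors, 27 ERR targets and 25 PPAR targets. Of all tested genes, 96.8% were called in either direction on library totals and 70.6% on totals outside the enzyme list. A filter at 10 CPM in 3 libraries left 4183 genes and 1 member, Esrra, with 1442 genes higher and 1420 lower, 0 members called in either direction and 19 pathway genes lower.

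Signs turned on library totals for Ppargc1b (2.47), Ppara (0.93), Ppard (1.98), Nr0b2 (0.36), Kat2b (2.62), Carm1 (2.40), Fbxw7 (2.56), Prkaa2 (1.02), Nr5a2 (1.05), Hnf4a (0.79), Nr2f6 (1.63), Atp5b (2.09), Uqcrfs1 (1.53), Suclg1 (1.58), Ehhadh (0.68), Pex11a (1.44), Acsl1 (2.15), Nudt22 (0.87), Slc7a5 (1.16), Slc35c2 (1.05), Cdc37l1 (2.02), Saraf (1.95), Ibtk (2.14), Foxa2 (0.41), Spint1 (0.36) and Slc41a1 (0.20). On totals outside the enzyme list they turned for Ppargc1b (0.34), Kat2b (0.50), Carm1 (0.33), Fbxw7 (0.45), Acsl1 (0.054) and Ibtk (0.061). The turns go with the shift of the median of all genes given above.

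Leaving out 1 library gave 2388 to 3411 genes higher and 2077 to 2829 lower, 1 to 2 members higher, 4 lower each time, though not the same 4, and 16 to 25 pathway genes higher and 25 to 29 lower. Without control replicate 2, Ppargc1a fell below the low-count filter and Ppargc1b passed in its place. The ratio of Ppargc1a to Ppargc1b ran from -4.71 to -1.99. Deviations of same-numbered libraries from their group means had correlations of 0.014, -0.030 and -0.008. With 3 libraries per group these values cannot settle whether the numbers pair the libraries, and the labels do not say. With a replicate block, 2884 genes were higher and 2505 lower, 4 members were lower and 1 higher, because Nrip1 missed the threshold (adjusted p = 0.0703, edgeR), and the other members and named genes kept their calls. Depth limits Esrrg, Esrrb and Ppargc1a most.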
